A study of Homo sapiens with 12 samples.

Results

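The synaptotagmin-like proteins and the RAB27 GTPases are 7 genes, SYTL1, SYTL2, SYTL3, SYTL4, SYTL5, RAB27A and RAB27B, out of 27788 gene symbols with deposited counts. They were taken as a family by name, and the family was singled out because SYTL5 stood highest and SYTL2 stood low when GSTO1 KO was compared with wild type in HCT116. All 7 had counts and FPKM values, and all 7 passed the filter on low counts in both lines. RNA was sequenced from GSTO1 KO and wild-type (WT) cells of HCT116, a line from a colorectal carcinoma, and from GSTO1 KO and WT cells of U-87 MG, a line from a glioblastoma, with 3 libraries in each of 4 groups. GSTO1 encodes glutathione S-transferase omega 1. Per the labels' protocols, cells carrying Cas9 from a lentivirus (Edit-R, selected with blasticidin) were given tracrRNA with a crRNA against exon 2 of GSTO1 or a control crRNA without a target, and single colonies were picked and checked by Sanger sequencing. The sources used here give neither the number of colonies behind the libraries nor whether WT means untreated cells or cells given the control crRNA. The labels do not name separate cultures for the 3 replicates of a group, so p-values measure the spread between these libraries.

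RAB27A and RAB27B are small GTPases that sit on secretory vesicles, among them melanosomes, lytic granules and the multivesicular bodies whose fusion with the plasma membrane releases exosomes. When loaded with GTP they recruit effectors, and the 5 synaptotagmin-like proteins are a family of such effectors. Each has a domain near its N terminus that binds RAB27 and a pair of C2 domains that bind phospholipids at the plasma membrane, so that a vesicle can be tethered where it will fuse. The family is known for the docking of secretory granules in exocrine, endocrine and immune cells. SYTL4, also called granuphilin, holds insulin granules at the membrane, and together with the effector EXPH5 it has been tied to exosome release by RAB27.

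SYTL5 lies on the X chromosome at chrX:38006553-38128819 on the plus strand (GRCh38), and none of its exon bases overlapped another annotated gene on either strand. The 250 bases upstream of its 2 annotated starts are shown because SYTL5 had the largest difference in HCT116 and was nearly absent from WT cells of that line. They are RefSeq sequence on GRCh38.p14, plus strand, for chrX:38006303-38006552 and chrX:38033284-38033533, and capitals mark the match to the AP-1 motif TGANTCA in the first.
SYTL5 first start: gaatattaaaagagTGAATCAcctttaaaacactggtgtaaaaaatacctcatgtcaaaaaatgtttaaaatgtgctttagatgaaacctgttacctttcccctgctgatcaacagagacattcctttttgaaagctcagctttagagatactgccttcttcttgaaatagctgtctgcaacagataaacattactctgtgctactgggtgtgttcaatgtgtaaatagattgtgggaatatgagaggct
SYTL5 second start: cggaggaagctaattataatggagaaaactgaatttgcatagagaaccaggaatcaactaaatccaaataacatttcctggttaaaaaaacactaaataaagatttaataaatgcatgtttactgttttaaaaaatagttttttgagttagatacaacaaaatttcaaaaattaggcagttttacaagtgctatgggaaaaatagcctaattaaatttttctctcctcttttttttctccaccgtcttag
The first stretch held 0 CpG dinucleotides at a GC content of 36.0% and the second held 2 at 28.4%, against a median of 11 CpG and 58.0% GC over the 35116 upstream stretches of the RefSeq table. Among those stretches 6.06% likewise held no CpG. Both strands were searched for 4 motifs, the interferon-stimulated response element core (GAAA, NN and GAAA in a row), the GAS motif TTCNNNGAA, the AP-1 motif TGANTCA and the M-box CATGTG. They occurred in 3.02%, 6.57%, 6.57% and 9.42% of all stretches. In SYTL5 the AP-1 match began 236 bases before the first start, and no other of these letters were found in either window. Upstream stretches were listed for 6 of the 7 members, SYTL2 being the one without an entry. Of the 14 listed, 1 held the interferon-stimulated core, at the first start of RAB27A 240 bases upstream. The AP-1 motif was not particular to SYTL5. It also occurred upstream of a start of SYTL3 (position -123), of RAB27A (-197) and of RAB27B (-137). A match is a description of letters and not a site of binding.

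Depth ranged between 17814142 and 28097179 counts per library. GSTO1 itself averaged 15.8 ± 1.22 CPM (counts scaled to a common depth within each line) in HCT116 KO libraries and 63.3 ± 1.74 CPM in HCT116 WT libraries. In U-87 MG it averaged 24.7 ± 0.772 CPM in KO libraries and 134.1 ± 14.9 CPM in WT libraries (SD, n = 3 each). Of the WT level 24.9% remained in HCT116 KO cells (log2 fold change -2.01, adjusted p = 6.78e-15) and 18.4% in U-87 MG KO cells (-2.44, adjusted p = 7.02e-14, edgeR quasi-likelihood test with Benjamini-Hochberg adjustment). Of 8 epithelial markers 6 exceeded 1 FPKM in HCT116, and VIL1 and CDX1 were at or near 0. Of 6 glial and neural markers 1, NES, exceeded 1 FPKM in U-87 MG, where GFAP was at or near 0, while all 5 mesenchymal markers did. The 5 leukocyte markers summed to at most 0.499 FPKM in any library. The 5 melanocyte markers, from a cell type that relies on RAB27A, summed to 4.75 to 5.50 FPKM in U-87 MG KO libraries, 3.96 to 4.70 in U-87 MG WT libraries and at most 1.62 in HCT116 libraries. Most of the U-87 MG sum was MITF, with a mean of 3.98 FPKM in KO and 3.80 in WT libraries. TYR and MLANA were at 0 in every group, and DCT was near 0. Between replicates of a group, the chi-square of the counts was 1.49 to 9.77 times its degrees of freedom, above sampling noise. The 2 highest values, 8.62 and 9.77, both involved U-87 MG WT replicate 3. Without that library the log2 fold changes of the members in U-87 MG lay between -1.10 (SYTL5) and 0.07 (SYTL1), and 1 of 7 was called, as with it. In bulk RNA, fewer cells expressing a gene and less RNA per cell cannot be told apart.

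In HCT116 the members differed between KO and WT cells in both directions. These differences are given as descriptions with no test, because they chose the family. SYTL5, an effector of which less is known than of its relatives, had 41.9, 42.8 and 39.0 CPM in KO libraries, against 0.0412, 0.116 and 0.330 CPM in WT libraries. The WT values rest on 1, 3 and 7 reads, so SYTL5 was almost absent from WT cells and at a moderate level in every KO library. Summed over libraries there were 2496 counts in KO cells and 11 in WT cells, a ratio scaled for depth of 266.5. Its exact 95% binomial interval, 148.7 to 534.6, covers counting error only. The interval leaves out the spread between libraries and the choice of SYTL5 by this difference, and is no test. The fitted log2 fold change was 8.01, and it was 8.91 without WT replicate 3, the WT library with the most SYTL5 reads. Ranked by fold change among the 1099 called genes whose KO and WT libraries did not overlap and whose mean FPKM reached 2, SYTL5 came first, and next came the interferon-stimulated genes OAS1 (4.84) and IFI6 (4.01).

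SYTL2, which in epithelial and immune cells links RAB27A vesicles to the plasma membrane, had 13.3, 13.6 and 11.5 CPM in KO libraries, against 58.5, 59.1 and 55.4 CPM in WT libraries. Every KO library lay below every WT library, and 22.1% of the WT level remained (log2 fold change -2.18). It was 9th from the bottom of the same ranking, with ZNF83 (-2.29) and XXYLT1 (-2.26) just below it and ZNF468 (-2.08) and SEC31A (-2.01) just above it. SYTL3, which in cytotoxic T cells links lytic granules to a kinesin motor, had 57.2, 57.8 and 59.5 CPM in KO libraries, against 96.2, 98.5 and 96.0 CPM in WT libraries, a log2 fold change of -0.74. The SYTL3 groups were far apart relative to their spread, with 60.0% of the WT level remaining.

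SYTL1, also called JFC1, which acts with RAB27A in the release of neutrophil granules, had 43.6, 43.2 and 49.9 CPM in KO libraries, against 21.4, 21.3 and 22.7 CPM in WT libraries. Its KO level was 210.1% of the WT level, without overlap (log2 fold change 1.07). SYTL4, granuphilin, had 15.3, 15.7 and 13.7 CPM in KO libraries, against 11.4, 12.8 and 11.7 CPM in WT libraries, a log2 fold change of 0.31. The SYTL4 difference was the least of the 5 effectors, and its highest WT library lay close below its lowest KO library. SYTL4 shares 39.0% of its exon bases with SRPX2 on the opposite strand, SRPX2 rose in HCT116 KO cells (log2 fold change 0.64, adjusted p = 0.0105 by edgeR), and as no source used here gives the strand setting of the counting, reads of the pair cannot be told apart.

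Of the GTPases, RAB27A had 11.7, 9.27 and 10.0 CPM in HCT116 KO libraries, against 11.3, 11.6 and 11.8 CPM in WT libraries, and the groups overlapped (log2 fold change -0.17). RAB27B had 4.19, 3.47 and 3.14 CPM in KO libraries, against 2.80, 2.62 and 2.41 CPM in WT libraries, which did not overlap (0.45), though its mean FPKM of 0.346 lay under the minimum of 0.5 used for calls. The ends of the range in this line, SYTL5 (8.01) and SYTL2 (-2.18), chose the family, so effectors and GTPases are not contrasted here. Across all 14068 genes tested, groups did not overlap for 61.6% and 11.9% were called (adjusted p under 0.05, fold above 1.5, mean FPKM above 0.5), 7.82% higher and 4.07% lower. Among the 7 members 6 did not overlap, and 2 higher and 2 lower exceeded the same thresholds. Nothing is read from these counts, since the choice of the family used them.

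**Figure D1:**
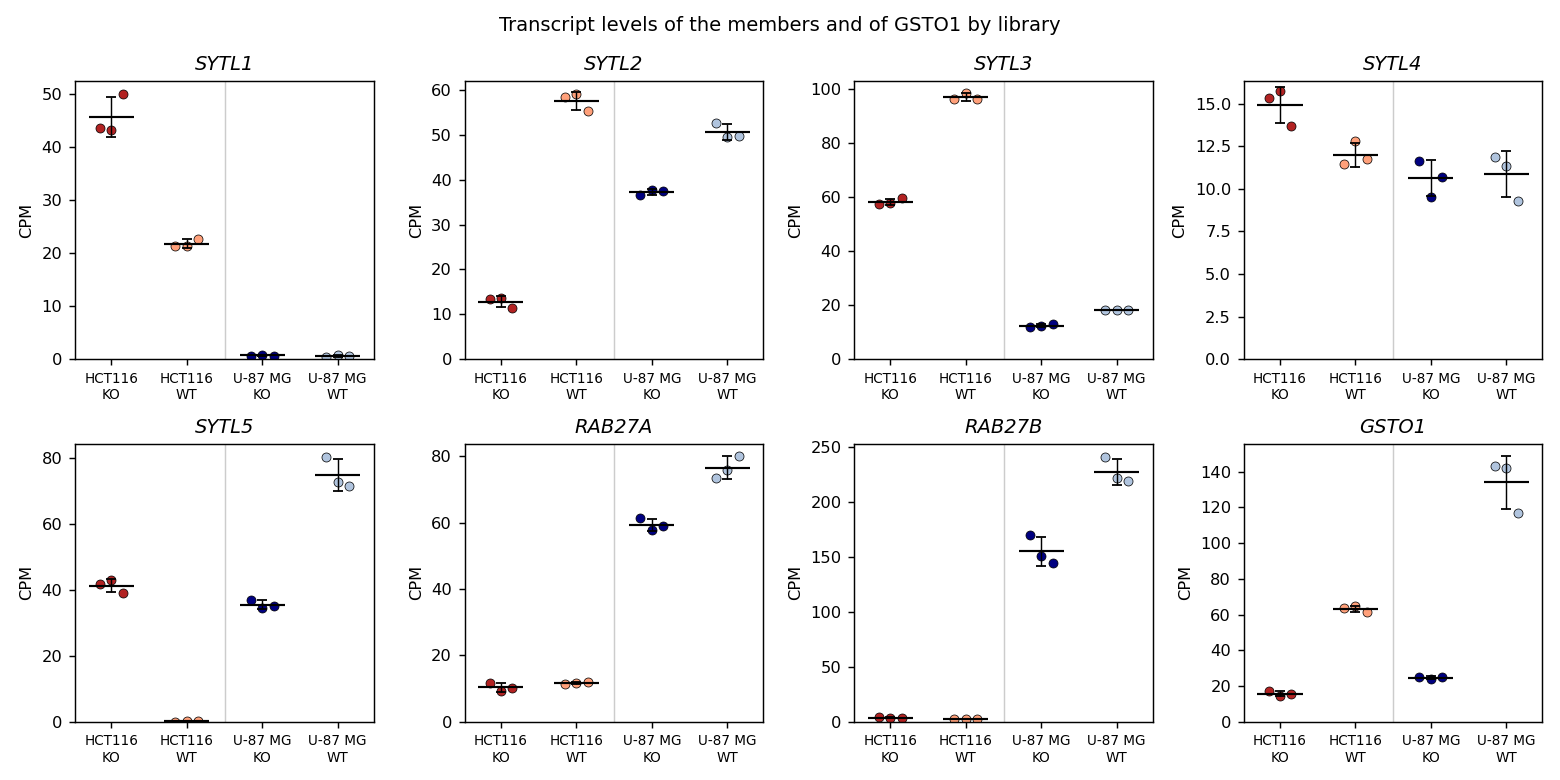
CPM of each member and of GSTO1 in every library (points, replicates 1 to 3 from left to right), with the group mean (horizontal line) and SD (bar); y axes differ between genes and start at 0. SYTL5 stood at 39.0 to 42.8 CPM in HCT116 KO libraries and at most 0.330 CPM in HCT116 WT libraries, and at 34.6 to 37.0 CPM in U-87 MG KO libraries, below the 71.5 to 80.2 CPM of U-87 MG WT libraries.

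FPKM, which is scaled by gene length, allows levels of different genes to be set side by side, and on this scale the make-up of the effector family differed between HCT116 KO and WT cells. SYTL3 led in both, with 17.4 ± 0.895 FPKM in KO libraries and 29.3 ± 0.478 FPKM in WT libraries (SD, n = 3 each). After it came SYTL1 (13.2), SYTL5 (6.75), SYTL4 (2.97), RAB27A (2.52), SYTL2 (2.30) and RAB27B (0.394) in KO libraries, and SYTL2 (11.3), SYTL1 (5.97), RAB27A (2.88), SYTL4 (2.41), RAB27B (0.297) and SYTL5 (0.0293) in WT libraries. Neighbours in this order were separated in every library of their group, except SYTL4, RAB27A and SYTL2 in KO libraries, where each overlapped the next. The 5 SYTL genes together summed to 42.6 ± 1.85 FPKM in KO libraries and 49.0 ± 0.657 FPKM in WT libraries. SYTL5 made up 15.9% of that sum in KO libraries and 0.0596% in WT libraries, SYTL1 30.9% and 12.2%, SYTL2 5.43% and 23.1%, and SYTL3 40.8% and 59.8%. The summed level thus differed far less than its division among the members.

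**Figure D2:**
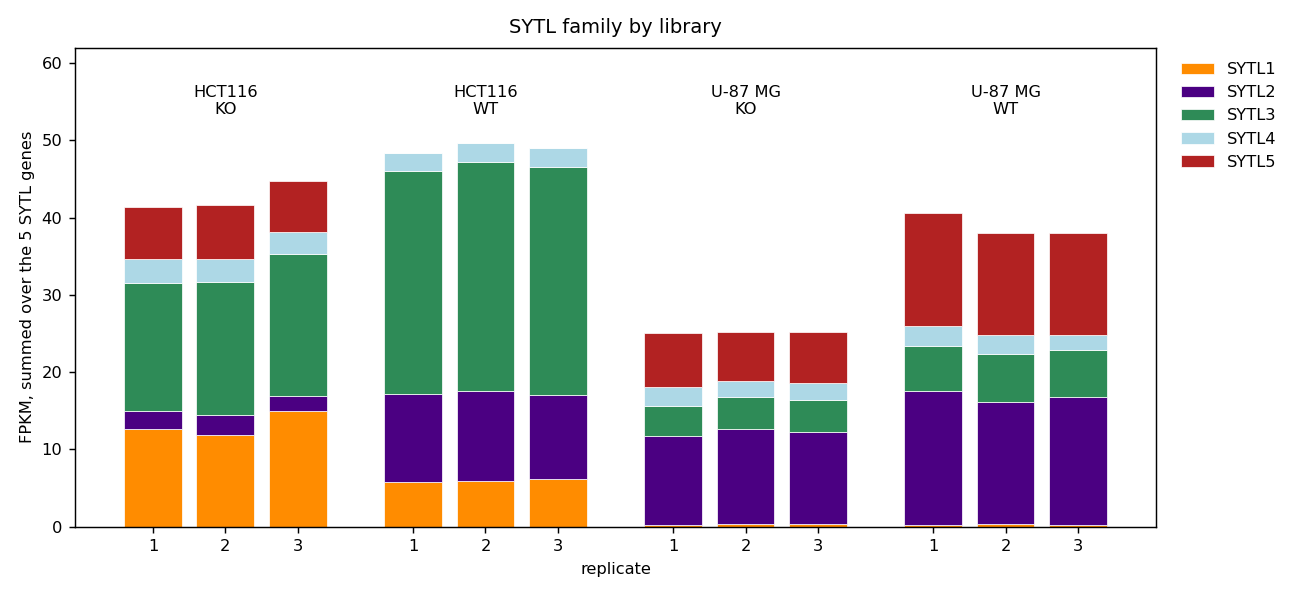
FPKM summed over the 5 SYTL genes in each library, stacked by gene; bars are libraries, replicates 1 to 3 in each group. In HCT116 the SYTL1 and SYTL5 segments are taller in KO bars and the SYTL2 and SYTL3 segments in WT bars, and in U-87 MG the KO bars sum to about 25.1 and the WT bars to about 38.9 FPKM.

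The comparison in U-87 MG was not used to choose the family, and there the members that differed were all lower in KO cells. By edgeR, 1 of 7 was called, SYTL5, which fell, against 16.2% of all 13741 genes tested (8.15% lower and 8.06% higher). Without the fold and FPKM minimums, 5 of 7 had an adjusted p under 0.05, all of them lower, where 59.3% of all genes passed and 30.2% passed and were lower. KO and WT libraries did not overlap for those 5, and did not overlap for 64% of all genes. The median log2 fold change of the 7 was -0.45, against 0.01 over all genes tested.

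SYTL5 had 37.0, 34.6 and 35.0 CPM in U-87 MG KO libraries, against 80.2, 72.5 and 71.5 CPM in WT libraries. It fell to 47.6% of the WT level (log2 fold change -1.07, SE 0.06, adjusted p = 7.68e-13), and was lower in 3 of 3 KO libraries. Mean SYTL5 was 41.2 ± 1.98 CPM in HCT116 KO libraries and 0.162 ± 0.150 CPM in HCT116 WT libraries, and 35.5 ± 1.29 CPM in U-87 MG KO libraries and 74.7 ± 4.75 CPM in U-87 MG WT libraries (SD, n = 3 each). CPM is not on one scale between lines. In FPKM the mean was 6.75 in HCT116 KO and 6.58 in U-87 MG KO libraries, and 0.0293 in HCT116 WT and 13.7 in U-87 MG WT libraries. On that scale the KO groups of the lines stood closer together than their WT groups. The HCT116 values are those that chose SYTL5, and read layout differed between the lines. Whether the difference of SYTL5 between KO and WT cells itself differed between the lines was not tested, since its HCT116 difference is the one that chose it. As single colonies of unstated number were picked, knockout and colony cannot be told apart.

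SYTL2 had 36.5, 37.7 and 37.5 CPM in U-87 MG KO libraries, against 52.7, 49.7 and 49.8 CPM in WT libraries (log2 fold change -0.45, SE 0.06, adjusted p = 8.81e-07). SYTL3 had 11.8, 12.2 and 13.1 CPM in KO libraries, against 18.2, 18.1 and 18.3 CPM in WT libraries (-0.56, SE 0.08, adjusted p = 6.09e-06). Both were lower than WT in every KO library, and both fell short of the 1.5-fold minimum for a call, SYTL3 narrowly: it was called (-0.60) without KO replicate 3. SYTL4 had 11.7, 9.52 and 10.7 CPM in KO libraries, against 11.9, 11.3 and 9.32 CPM in WT libraries, and no difference was detectable (-0.03, SE 0.11, adjusted p = 0.847). SYTL1 was barely present, with 0.650, 0.769 and 0.591 CPM in KO libraries, against 0.396, 0.834 and 0.521 CPM in WT libraries. At this level the SYTL1 estimate of 0.16 carried an SE of 0.38 (adjusted p = 0.74), and its sign turned to -0.06 without WT replicate 1.

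Both GTPases were lower in U-87 MG KO cells as well. RAB27A had 61.4, 57.6 and 58.9 CPM in KO libraries, against 73.5, 75.9 and 80.2 CPM in WT libraries (log2 fold change -0.37, SE 0.05, adjusted p = 3.1e-06). RAB27B had 170.3, 151.5 and 144.3 CPM in KO libraries, against 241.5, 222.2 and 219.3 CPM in WT libraries (-0.55, SE 0.06, adjusted p = 2.57e-07). Of the WT level 77.5% of RAB27A and 68.3% of RAB27B remained, both short of the 1.5-fold minimum, and RAB27B was called (-0.62) without KO replicate 1. On the FPKM scale RAB27B led in U-87 MG, with 19.4 ± 1.55 in KO libraries and 28.0 ± 1.45 in WT libraries, followed in both groups by RAB27A, SYTL2, SYTL5, SYTL3, SYTL4 and SYTL1 with no overlap between neighbours (SD, n = 3 each). The order of the members was therefore alike in U-87 MG KO and WT cells, and the sum of the 5 SYTL genes was 25.1 ± 0.0411 FPKM in KO libraries and 38.9 ± 1.47 FPKM in WT libraries. SYTL5 made up 26.2% of that sum in KO libraries and 35.2% in WT libraries.

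**Figure D3:**
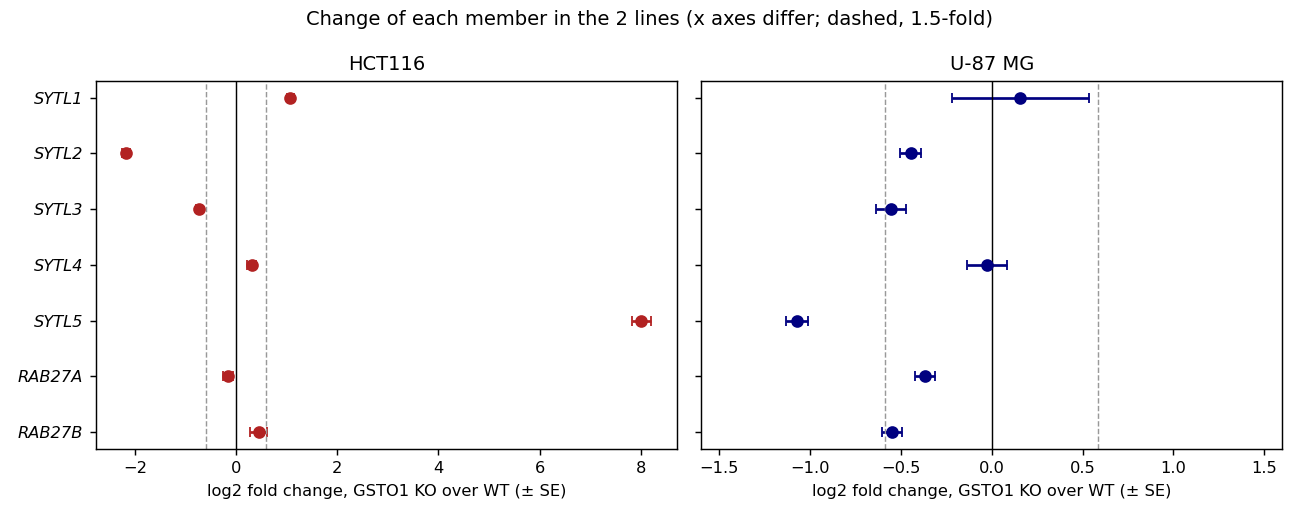
Log2 fold change of GSTO1 KO over WT for each member from the edgeR fit of each line, 6 libraries per line. Bars are approximate standard errors, the absolute log2 fold change over the square root of the F statistic. In HCT116 they are descriptions, and the SYTL5 bar (0.18) understates the uncertainty of a value resting on 11 WT reads. The x axes differ, and dashed lines mark a fold of 1.5. In HCT116 the values run between -2.18 and 8.01, and in U-87 MG SYTL5 (-1.07) is the member beyond the dashed line.

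The WT cells of the lines differed in which members they used. Of the 5 members that can be tested here, 4 were called in HCT116 WT over U-87 MG WT, where 53.3% of all 14981 genes tested were called (26% higher, 27.2% lower). For the same 4 the libraries of the lines did not overlap, as for 83.6% of all genes. SYTL1 (log2 fold change 5.00, adjusted p = 8.97e-19) and SYTL3 (2.25, adjusted p = 1.44e-20) were higher in HCT116 WT cells. RAB27A (-2.89, adjusted p = 1.69e-21) and RAB27B (-6.61, adjusted p = 3.34e-27) were lower in HCT116 WT cells. For SYTL4 no difference was detectable (-0.03, SE 0.10, adjusted p = 0.813), and its sign depends on the unit. SYTL5 stood at 0.0293 ± 0.0270 FPKM in HCT116 WT libraries and 13.7 ± 0.785 FPKM in U-87 MG WT libraries. SYTL2 had 57.7 ± 2.00 CPM in HCT116 WT libraries and 50.7 ± 1.73 CPM in U-87 MG WT libraries, each scaled within its own line. With the WT libraries scaled together, SYTL2 counts were nearly equal (log2 fold change 0.02, given without a test). On the FPKM scale SYTL2 had 11.3 ± 0.353 in HCT116 WT libraries and 16.6 ± 0.785 in U-87 MG WT libraries (SD, n = 3 each). HCT116 was sequenced with single and U-87 MG with paired reads, so line and read layout cannot be told apart. RAB27B made up 13.5% of the summed RAB27 FPKM in HCT116 KO libraries and 9.37% in HCT116 WT libraries, and 55.4% in U-87 MG KO libraries and 58.5% in U-87 MG WT libraries.

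Genes that lie near SYTL5 were also higher in HCT116 KO cells. The nearest tested genes on either side are DYNLT3, a dynein light chain 159.0 kb away, and SRPX, a sushi-repeat protein 20.5 kb away. DYNLT3 had 67.3, 67.0 and 62.3 CPM in HCT116 KO libraries, against 24.9, 28.6 and 23.6 CPM in WT libraries (log2 fold change 1.34, adjusted p = 4.53e-12, edgeR). SRPX had 31.0, 32.3 and 31.6 CPM in HCT116 KO libraries, against 14.3, 13.8 and 13.8 CPM in WT libraries (1.18, adjusted p = 3.62e-11). Both rose, and within 1 Mb of SYTL5, a window chosen after these values were seen, 4 of 9 tested genes were called higher in HCT116, the other 2 being LANCL3 (1.36, adjusted p = 6.47e-06) and TSPAN7 (1.06, adjusted p = 4.29e-05). DESeq2 and limma on log2(FPKM + 0.1) likewise called 4 of the 9 higher, and limma on log2(FPKM + 1) called 3. Of the remaining 5, PRRG1 (0.52), MID1IP1 (0.44) and RPGR (0.39) had an adjusted p under 0.05 with a fold below 1.5, and XK (0.05) and CYBB (-0.18) did not. None of the 9 was called lower by edgeR, with 0 lower at an unadjusted p under 0.05 and 0 called lower by DESeq2 or by limma on either FPKM scale. The median over the 9 was 0.52, whereas the median of the 403 tested genes of the X chromosome was 0.02 and 7.20% of them were called higher. In U-87 MG, where SYTL5 fell, LANCL3 (0.89, adjusted p = 4.24e-06) and TSPAN7 (0.63, adjusted p = 0.0108) rose among 8 tested genes of the window, with a median of 0.46, while XK (0.84), DYNLT3 (0.53), PRRG1 (0.40), MID1IP1 (0.30) and SRPX (0.26) were higher and RPGR (-0.58, adjusted p = 8.46e-06) was lower without being called. RPGR thus lay on the same side as SYTL5 in both lines, with 9.86, 9.61 and 9.73 CPM in U-87 MG KO libraries, against 14.4, 14.4 and 14.9 CPM in U-87 MG WT libraries, which did not overlap. Neither of the 2 calls in U-87 MG was made by limma on log2(FPKM + 1). Over the 421 tested genes of the X chromosome the median in U-87 MG was 0.08, and 9.26% were called higher.

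**Figure D4:**
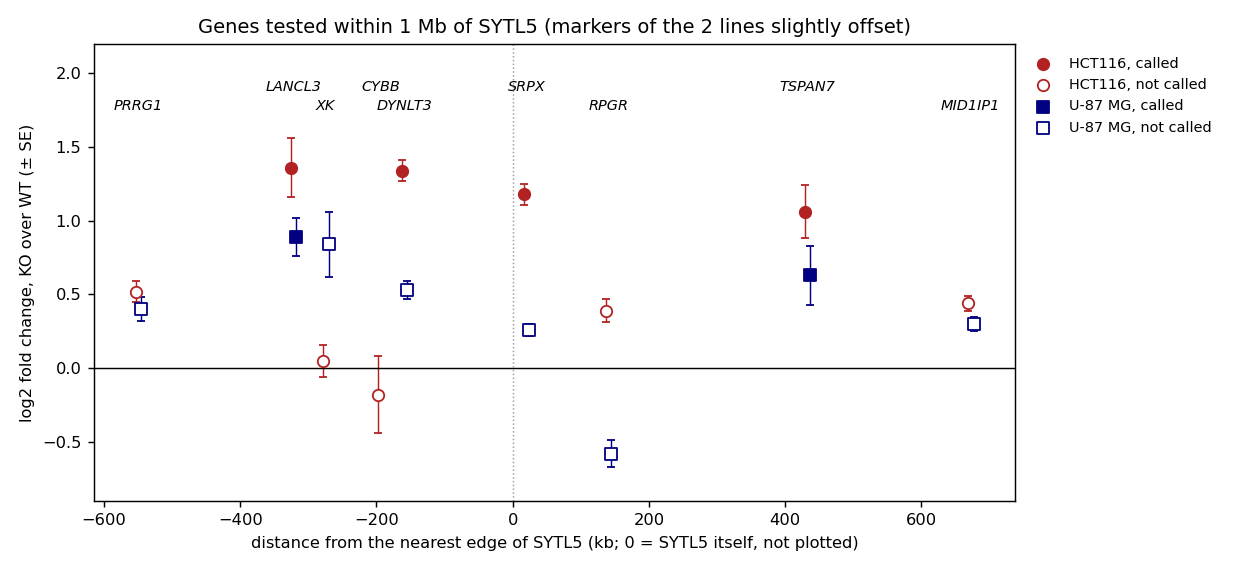
Log2 fold change (GSTO1 KO over WT, with SE bars) of each tested gene within 1 Mb of SYTL5 by its distance from the nearest edge of SYTL5, in HCT116 (circles) and U-87 MG (squares); filled marks are called genes. SYTL5 itself (8.01 in HCT116, -1.07 in U-87 MG) is not plotted, and LANCL3, DYNLT3, SRPX and TSPAN7 are the filled circles, between 1.06 and 1.36.

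SYTL2 lies at chr11:85694224-85811159 on the minus strand. Within 1 Mb of it 1 of 9 tested genes was called in HCT116, TMEM126A, which fell (log2 fold change -0.68, adjusted p = 9.76e-06, edgeR), and the median was -0.17. Over the 755 tested genes of chromosome 11 the median was 0.003, with 7.55% called higher and 4.77% lower. Without a call, TMEM126B (-0.51, adjusted p = 5.41e-06) and HIKESHI (-0.32, adjusted p = 0.00211) were lower and PRSS23 (0.40, adjusted p = 0.00419) was higher. In this window limma on log2(FPKM + 0.1) called 2 lower. The nearest tested neighbours of SYTL2 were PICALM, a clathrin adaptor, at 0.09 (adjusted p = 0.0971) in HCT116, and CCDC89, which passed the filter in U-87 MG alone, at 0.58 (adjusted p = 0.00441, below 1.5-fold). In U-87 MG 0 of 10 tested genes of that window were called by edgeR, by DESeq2 or by limma on either FPKM scale, and 3 of the 10 had an unadjusted p under 0.05, 2 higher and 1 lower. The lower one was ME3, a mitochondrial malic enzyme, with 0.0361, 0.336 and 0.0909 CPM in KO libraries, against 1.98, 2.43 and 1.99 CPM in WT libraries (-3.86, adjusted p = 6.8e-08), at a mean FPKM under the minimum for a call. The neighbours of the other members were TMEM222 and MAP3K6 for SYTL1, DYNLT1 and EZR for SYTL3, TSPAN6 and CSTF2 for SYTL4, RSL24D1 and CCPG1 for RAB27A and C18orf54 and CCDC68 for RAB27B. Among them CCPG1 in U-87 MG was called (0.71, adjusted p = 2.45e-08), and 38.9% of its exon bases are shared with a readthrough gene on the same strand. Others had an adjusted p under 0.05 by edgeR without a call. DYNLT1 (-0.32 in HCT116, -0.16 in U-87 MG), EZR (-0.30, -0.24), CSTF2 (-0.50, -0.54) and C18orf54 (-0.40, -0.55) were lower in both lines. MAP3K6 (0.25), CCDC68 (0.29) and RSL24D1 (0.15) were higher in HCT116. In U-87 MG TSPAN6 (0.54) was higher and MAP3K6 (-0.36) lower.

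The other genes of the RAB27 pathway were grouped in 7 lists with 83 genes. In HCT116, 9 of 68 tested genes rose and 0 fell, 13.2% called against 11.9% of all genes. Of the genes that were lower, 7 had an unadjusted p under 0.05 by edgeR, 0 were called by DESeq2 and 1 by limma on either FPKM scale. In U-87 MG, 10 of 65 rose and 8 fell, 27.7% called against 16.2% of all genes. The counts of each list below stand against the same shares of all genes. The lists' median log2 fold change was 0.11 in HCT116 and 0.10 in U-87 MG, and 0.01 over all genes tested in either line. The regulators of RAB27, which load it with GTP, switch it off or attach its lipid anchor, held 0 calls in 9 genes in HCT116 by edgeR, DESeq2 or limma, with 4 at an unadjusted p under 0.05, and 3 of 9 in U-87 MG, all lower. These were RABGGTA, the alpha subunit of the enzyme that adds the lipid (log2 fold change -0.99, adjusted p = 8.61e-10), CHML, an escort protein that presents RABs to that enzyme (-0.78, adjusted p = 4.38e-10), and TBC1D10A, a GTPase-activating protein for RAB27A (-0.78, adjusted p = 8.42e-08). TBC1D10A lies on chromosome 22, where 72.2% of the 299 tested genes were called lower in U-87 MG with a median of -0.97, and RABGGTA on chromosome 14, where 35.6% of 430 were called lower with a median of -0.47. The part of this in their change was not tested. MADD, which loads RAB27 and RAB3 with GTP, stood at 0.23 (adjusted p = 0.000447) in HCT116 and 0.01 (adjusted p = 0.881) in U-87 MG.

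Of the RAB27 effectors outside the SYTL family, 0 of 6 tested genes were called in HCT116 by edgeR, DESeq2 or limma (median 0.37, 4 at an unadjusted p under 0.05 by edgeR) and 2 of 4 in U-87 MG. RPH3AL, also called NOC2, a RAB3 and RAB27 effector without C2 domains, rose in U-87 MG, with 5.67, 5.62 and 5.82 CPM in KO libraries, against 0.396, 0.580 and 0.378 CPM in WT libraries (log2 fold change 3.61, SE 0.22, adjusted p = 4.07e-12). MLPH, melanophilin, which couples RAB27A to myosin Va on melanosomes, fell in U-87 MG, with 247.3, 234.1 and 242.1 CPM in KO libraries, against 382.9, 382.1 and 379.4 CPM in WT libraries (-0.66, SE 0.04, adjusted p = 1.7e-12). Both differences were larger than the spread within groups. MYRIP, which couples RAB27A to myosins, stood at 4.10 in U-87 MG (adjusted p = 5.6e-10) with a mean FPKM of 0.472, under the minimum for a call. In HCT116 RPH3AL (0.51, adjusted p = 0.000558), EXPH5 (0.39, adjusted p = 0.000143) and MLPH (0.22, adjusted p = 0.00138) were higher by less than 1.5-fold, and RPH3A, rabphilin, stood at 1.46 (adjusted p = 0.00227) with a mean FPKM of 0.104, under the minimum for a call.

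The docking and fusion machinery held 1 call in 13 tested genes in HCT116 and 3 in 14 in U-87 MG. VAMP2, a SNARE of secretory vesicles, rose in both lines, with a log2 fold change of 0.60 (adjusted p = 4.7e-08) in HCT116 and 0.64 (adjusted p = 2.4e-08) in U-87 MG. In HCT116 the VAMP2 call lay at the 1.5-fold minimum and was lost without WT replicate 2 (0.56). STXBP2, the Munc18-2 protein that works with RAB27A in lytic granule release, fell in U-87 MG (-1.96, adjusted p = 1.76e-05) at 0.525 ± 0.109 CPM in KO libraries and 2.07 ± 0.730 CPM in WT libraries (SD, n = 3 each), and without WT replicate 1 it was not called although the difference was -1.65 (adjusted p = 0.00031). In HCT116, where STXBP2 was abundant, it was 94.9 ± 4.86 CPM in KO libraries and 71.2 ± 2.73 CPM in WT libraries (0.42, adjusted p = 1.4e-06, below 1.5-fold). SNAP29 fell in U-87 MG (-1.01, adjusted p = 1.54e-11), and it too lies on chromosome 22. Among related secretory RABs, RAB38, which acts beside RAB32 in melanosome formation, rose in HCT116 (0.88, adjusted p = 3.46e-07), the single call of 11 by edgeR. RAB8A was lower there (-0.56, adjusted p = 8.98e-10), just below 1.5-fold. By limma 1 gene of this list was called lower in HCT116 on either FPKM scale. RAB26 (2.04, adjusted p = 1.39e-09) and RAB3A (0.70, adjusted p = 0.00302), both of secretory granules, rose in U-87 MG, 2 calls of 11, and the RAB3A call was lost without KO replicate 3 (0.54, adjusted p = 0.0366).

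Relatives with C2 domains in tandem were called in 5 of 13 tested genes in HCT116 (38.5%, against 11.9% of all genes), all higher. In U-87 MG 4 of 10 were called (40%, against 16.2% of all genes), 3 higher and 1 lower. In HCT116 SYT1, a calcium sensor of vesicle release, had 98.3 ± 9.35 CPM in KO libraries and 51.6 ± 4.51 CPM in WT libraries (log2 fold change 0.92, adjusted p = 9.83e-10), and DOC2A, another calcium sensor, had 25.0 ± 0.924 CPM in KO libraries and 12.3 ± 0.858 CPM in WT libraries (1.02, adjusted p = 1.63e-09). SYT5 (1.45, adjusted p = 3.65e-06) and SYT17 (0.69, adjusted p = 1.2e-06) were called too, as was SYT3 (0.61, adjusted p = 0.00151), which is outside the rule for named genes and was named after its values were seen. In U-87 MG SYT11, a synaptotagmin that does not bind calcium, had 292.5 ± 4.06 CPM in KO libraries and 178.8 ± 3.33 CPM in WT libraries (0.71, adjusted p = 7.06e-13), SYT14 fell (-1.01, adjusted p = 4.2e-07), and DOC2A (1.51, adjusted p = 4.34e-05) and SYT1 (0.78, adjusted p = 0.00218) rose at low levels. The SYT1 call in U-87 MG was lost on leaving out any 1 of the KO libraries (log2 fold change 0.68 to 0.85), as its mean FPKM of 0.501 lies at the minimum.

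Among the vesicle motors 1 of 5 was called in HCT116, MYO7A (0.90, adjusted p = 3.43e-06), with a mean FPKM of 0.539 and the call lost without KO replicate 2 or 3 (0.87 either way), and 0 of 5 in U-87 MG by edgeR, DESeq2 or limma, where 4 of the 5 had an unadjusted p under 0.05 by edgeR. MYO5A, the motor that MLPH couples to RAB27A, stood at 0.11 (adjusted p = 0.0934) in HCT116 and 0.02 (adjusted p = 0.674) in U-87 MG. Of 12 genes of exosome formation 1 was called in HCT116 and 4 in U-87 MG, among them the tetraspanins that mark exosomes. CD9 rose in U-87 MG, with 98.0, 97.2 and 96.1 CPM in KO libraries, against 16.0, 15.6 and 14.2 CPM in WT libraries (2.67, SE 0.06, adjusted p = 2.37e-19), and CD63 (0.74, adjusted p = 4e-13) and CD81 (0.69, adjusted p = 3.09e-11) rose with it. In HCT116 CD63 (0.26, adjusted p = 1.48e-05) was higher below 1.5-fold, and CD9 (0.09, adjusted p = 0.165) and CD81 (0.04, adjusted p = 0.526) did not pass the test. CD82 rose in HCT116, at 14.5 ± 1.54 CPM in KO libraries and 7.93 ± 1.23 CPM in WT libraries (0.88, adjusted p = 1.49e-06), and fell in U-87 MG, at 97.5 ± 3.52 CPM in KO libraries and 179.6 ± 12.9 CPM in WT libraries (-0.88, adjusted p = 2.92e-12; SD, n = 3 each). These calls by edgeR were all tetraspanins, and the other 8 genes of the list act in cargo sorting or membrane scission. In U-87 MG VPS4A (-0.28, adjusted p = 7.47e-06), HGS (-0.28, adjusted p = 2.04e-05), STAM (-0.20, adjusted p = 0.000993) and STAM2 (-0.18, adjusted p = 0.00998) were lower and TSG101 (0.12, adjusted p = 0.0381) higher, each below 1.5-fold. In HCT116 STAM (-0.36, adjusted p = 6.6e-05), HGS (-0.13, adjusted p = 0.0245) and PDCD6IP (-0.11, adjusted p = 0.0434) were lower and TSG101 (0.16, adjusted p = 0.0129) higher, again below 1.5-fold. SDCBP and VPS4B passed the test in neither line.

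**Figure D5:**
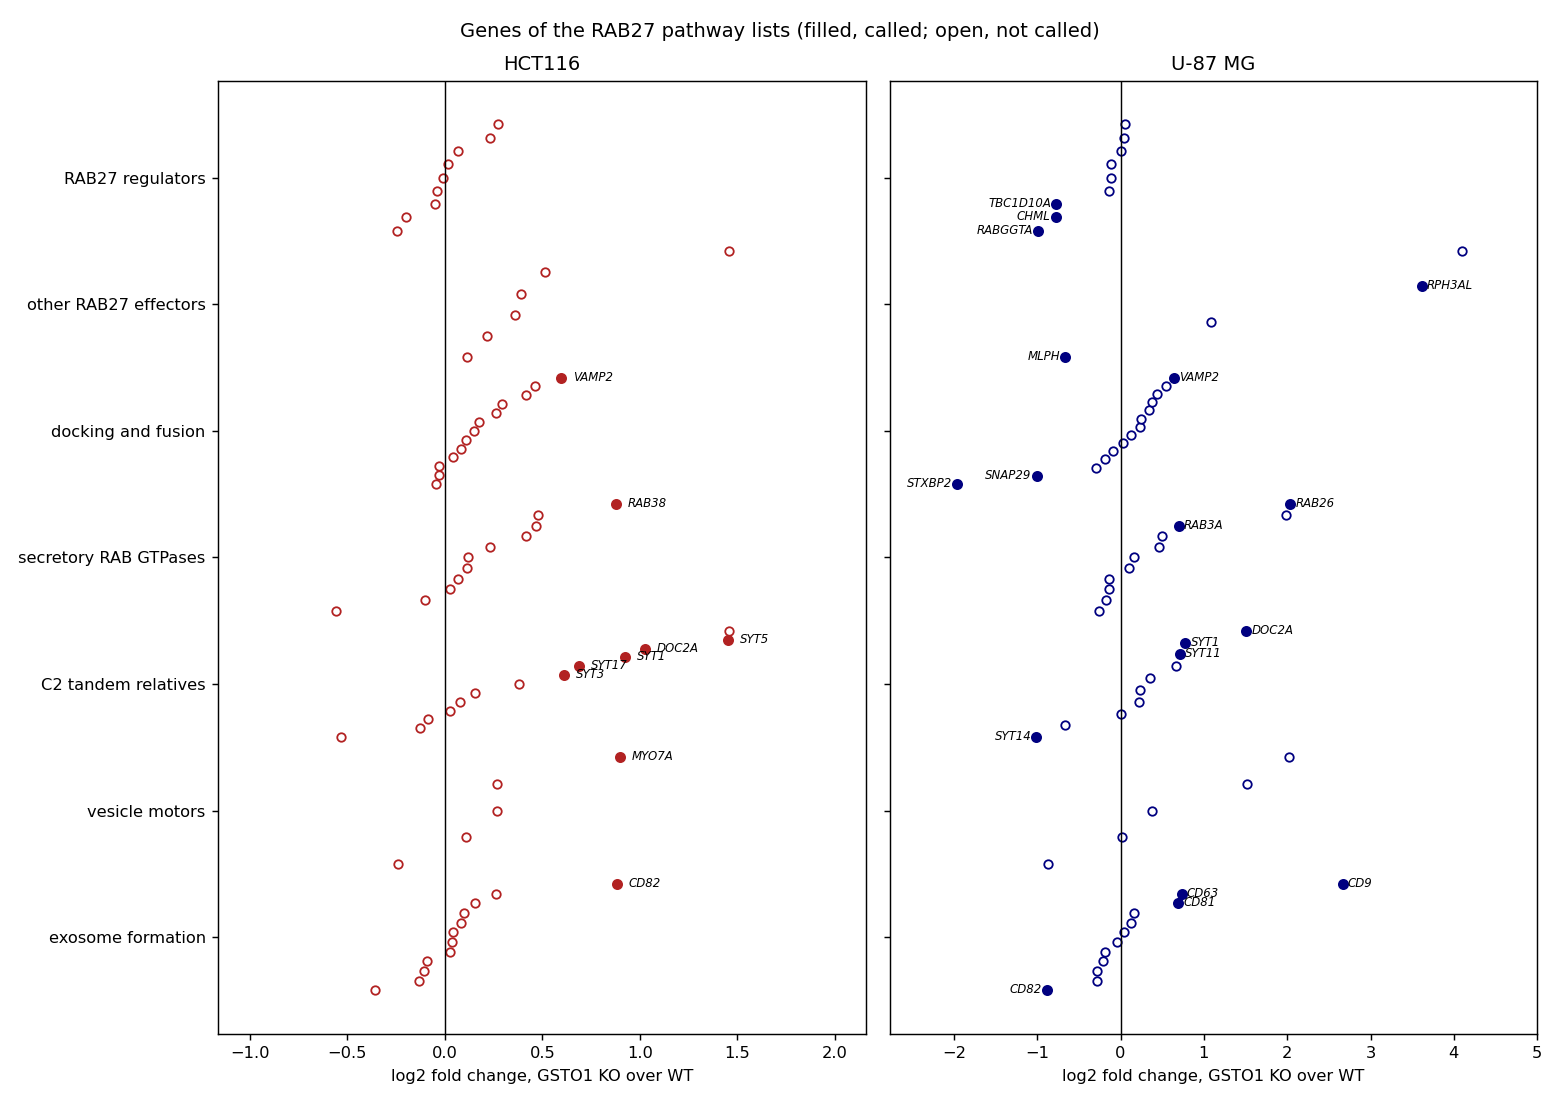
Log2 fold change (GSTO1 KO over WT) of each tested gene in the 7 pathway lists, HCT116 on the left and U-87 MG on the right; filled and named marks are called genes and the x axes differ. The 9 called genes of HCT116 all lie right of 0, and those of U-87 MG lie on both sides, 10 higher and 8 lower.

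Of the named pathway genes, several share exon bases with another annotated gene, so their counts are less certain. More than 5% of exon bases are shared on the same strand for STXBP2 (30.4%), VAMP2 (11.9%), TBC1D10A (10.8%) and CHML (6.27%), and on the opposite strand for SNAP29 (12.1%), RAB3A (9.24%), SYT17 (7.06%), CD82 (6.93%), RPH3AL (5.90%), DOC2A (5.54%) and MLPH (5.02%). Among the members these shares were at most 4.77%, on the opposite strand of RAB27B, except for SYTL4.

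The genes whose levels followed each member most closely were ranked by Pearson's r of log2 CPM over the 12 libraries among 11914 genes, as a description of libraries that share line and depth. The rankings for SYTL5 and SYTL2 include the HCT116 values that chose these genes, so neither is independent of that choice. For SYTL5 the closest genes were PKIB, an inhibitor of protein kinase A (r = 0.98), the butyrophilin BTN3A2 (0.98) and the interferon-stimulated gene OASL (0.98). Like SYTL5, PKIB had its lowest FPKM in HCT116 WT cells, with 34.8 in HCT116 KO cells against 3.18 in HCT116 WT cells, and 24.3 in U-87 MG KO cells against 27.7 in U-87 MG WT cells. OASL had 10.3 FPKM in HCT116 KO cells against 1.50 in HCT116 WT cells, and 7.98 in U-87 MG KO cells against 9.04 in U-87 MG WT cells. SYTL5 itself had 6.58 FPKM in U-87 MG KO cells against 13.7 in U-87 MG WT cells, a larger difference than that of PKIB or OASL. For SYTL2 the closest genes were MRPL37 (0.99), CDCA2 (0.98) and RPP30 (0.98). MRPL37, a mitochondrial ribosomal protein, was like SYTL2 lowest in HCT116 KO cells, at 47.5 FPKM against 117.9 in HCT116 WT cells. It had 98.3 in U-87 MG KO cells against 111.3 in U-87 MG WT cells. The closest gene was CES3 for SYTL1 (r = 0.998), DNMT3B for SYTL3 (0.999), PEAK1 for SYTL4 (0.943), MGLL for RAB27A (0.999) and SEC22B for RAB27B (0.999).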

How the data were processed

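RNA was sequenced in 12 libraries, 3 for each of 4 groups, as 50 bp reads, single in HCT116 and paired in U-87 MG, after 12 PCR cycles, per the labels' protocols. STAR 2.5.2 (alignment to GRCh38), featureCounts 1.6.1 and Cufflinks 2.2.1 are named in the submitters' processing notes. The authors deposited raw counts for each symbol, from featureCounts, and FPKM values, from Cufflinks, per their design text. Libraries were made with a stranded kit, but the strand setting of the counting and the handling of reads with several alignments were not given in the sources used here. Each library held between 17814142 and 28097179 counts.

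Counts of the 6 libraries compared were tested with the quasi-likelihood F-test of edgeR 4.0.16 in R 4.3.3, using TMM factors, filterByExpr and Benjamini-Hochberg adjustment over all genes tested. A call needed a mean FPKM over 0.5 in those libraries, a change of more than 1.5-fold and an adjusted p below 0.05. The SE given with a log2 fold change is approximate, its absolute value over the square root of the F statistic. CPM values are counts scaled to a common depth with TMM factors within each line, so they are not on one scale between lines. For the likeness ranking all 12 libraries were scaled together. The HCT116 differences of the members, which chose them, were given without a test, as were SYTL2 and SYTL5 between WT lines. The members and the lists were chosen with earlier results of these data known. Named genes are GSTO1, the members, up to 4 called genes of each list and line with the smallest adjusted p, the nearest tested genes beside each member, the 3 genes most like each member and the genes next to SYTL5 and SYTL2 in rank. SYT3 and the genes within 1 Mb of SYTL5 and SYTL2 were named after their values were seen, as were list genes given with values but no call. Alternatives were RLE factors, DESeq2 1.42.0, no count filter, limma 3.58.1 on log2(FPKM + 1) and log2(FPKM + 0.1), no FPKM minimum, a replicate block and leaving out each library. The scripts were tested on simulated counts. Positions of 87.6% of symbols (24337 of 27788) were matched to GENCODE on GRCh38. Of the list genes, 1 enters the counts of its list but is otherwise not reported here.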

Additional observations from a re-analysis of the deposited data

Results flagged for a closer look

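Among the members and the genes of the pathway lists, the windows around SYTL5 and SYTL2, the neighbours, the likeness ranking and the fold-change ranking, 115 were considered that were tested in both lines. In 16 of them (13.9%) KO and WT libraries did not overlap in either line and lay in opposite directions, as in 12.9% of all 12239 genes tested in both lines. In none of the 16 was the difference between the lines itself tested. Libraries without overlap are common, at 61.6% of all genes tested in HCT116 and 64% in U-87 MG. Among the 16, STX1A (adjusted p = 0.0622) and SRPX2 (adjusted p = 0.0638) did not pass the edgeR test in U-87 MG. SYTL5 had a log2 fold change of 8.01 in HCT116 and -1.07 in U-87 MG. RAB27B had 0.45 in HCT116, at a mean FPKM of 0.346, and -0.55 in U-87 MG. Of the pathway lists, CD82 had 0.88 in HCT116 and -0.88 in U-87 MG, STXBP2 0.42 and -1.96, MLPH 0.22 and -0.66, STX1A 0.46 and -0.09, RAB3B 0.41 and -0.14, and MYO5C 0.27 and -0.87. Near the members, RPGR had 0.39 in HCT116 and -0.58 in U-87 MG, MAP3K6 0.25 and -0.36, and SRPX2 0.64 and -0.13. Of the genes most like a member, PKIB had 3.47 in HCT116 and -0.21 in U-87 MG, BTN3A2 1.23 and -0.17, and SEC22B 0.13 and -0.12. Of the genes beside SYTL2 in rank, SEC31A had -2.01 in HCT116 and 0.20 in U-87 MG, and XXYLT1 -2.26 and 0.07.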

How the results depend on the processing

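In U-87 MG the 5 members with an adjusted p under 0.05 kept their sign under all 13 alternatives run for each. SYTL5 was called in each of them (log2 fold change -1.10 to -0.95). Leaving out 1 library gave -0.06 to 0.54 for SYTL1, -0.12 to 0.04 for SYTL4, -0.60 to -0.52 for SYTL3 and -0.62 to -0.50 for RAB27B, and 1 to 2 members called. In HCT116 SYTL5 had 2.91 with limma on log2(FPKM + 1) and 5.75 on log2(FPKM + 0.1), where the pseudocount bounds the fold, and 7.56 to 8.91 on leaving out 1 library. On log2(FPKM + 1) SYTL2 had -1.90 and RAB27B 0.10. Between WT lines SYTL4 had 0.03 and 0.05 on the FPKM scales and -0.12 to 0.04 without 1 library. Pathway genes called in HCT116 numbered 5 higher and 1 lower on log2(FPKM + 1) and 1 lower on log2(FPKM + 0.1), and 569 genes in all were called higher on log2(FPKM + 1), against 1100 by edgeR. The cause of these shifts was not tested beyond the pseudocount. Of the named pathway genes, SYT17 and MYO7A in HCT116 and RAB3A, SYT1 and DOC2A in U-87 MG were not called on log2(FPKM + 1), nor SYT1 in U-87 MG on log2(FPKM + 0.1), nor VAMP2 in HCT116 on either FPKM scale or without the count filter. Same-numbered KO and WT libraries deviated together little (r -0.01 to 0.135), and the tests took the libraries as unpaired. The highest r, 0.135, was that of replicate 3 in HCT116, whose other pairings gave -0.092 to -0.048. In both HCT116 groups replicate 3 also differed most from the other libraries. An effect shared by the HCT116 libraries numbered 3 was not tested. With the replicate block SYTL5 had -1.07 in U-87 MG with 1 of 7 members called, as without it. Pathway genes called with the block were also as without it, 9 higher in HCT116, and 10 higher and 8 lower in U-87 MG. Depth limits SYTL1 in U-87 MG and SYTL5 in HCT116 WT cells, where libraries held 1 to 7 reads.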
